A study of Mus musculus with 10 samples.

Results

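UDP-sugar synthesis and transport was followed in sorted mouse lung eosinophils through 9 genes: Ugp2, Uap1, Ugdh, Uggt1, Uggt2, Gys1, Slc35d1, Slc35d2 and Slc35a3. They were chosen by gene symbol because they bear on the supply and export of UDP-glucose, the ligand of the receptor that the study removed. All 9 had a row among the 35725 genes of the table, and all 9 passed the low-count filter that left 15586 genes for testing. RNA was sequenced from 5 libraries of P2ry14-null eosinophils and 5 libraries of eosinophils from wild-type C57BL/6J mice (WT). All animals were male and all went through the same allergic asthma model: oropharyngeal sensitization with ovalbumin (50 µg) and a protease of Aspergillus oryzae (20 µg), an aerosol of 1% ovalbumin 7 days after the last sensitization, and sorting of lung eosinophils by flow cytometry 16 h later. No group without allergen was analysed here, so the values are those of challenged lungs. The labels name the strain P2ry14-null without giving the allele, and do not state whether the libraries are separate mice, so that p-values reflect spread that may be technical.

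UDP-sugars are sugars activated by a uridine nucleotide. Cells make UDP-glucose in the cytosol, convert it to other UDP-sugars, and carry these into the endoplasmic reticulum and Golgi, where glycosyltransferases use them to build glycans. UDP-sugars that leave a cell can act on P2ry14, a Gi-coupled receptor found on several leukocytes. Eosinophils, granulocytes recruited to allergic airways, carry many glycosylated surface and granule proteins.

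P2ry14-null eosinophils were compared with WT eosinophils for these transcripts, and none of the 9 genes changed past the threshold. Levels are given as counts per 1e+06 reads (CPM) on library sizes scaled by TMM, a normalization that assumes most genes do not differ. In edgeR's quasi-likelihood test with Benjamini-Hochberg adjustment over all 15586 genes and a threshold of 0.05, 0 of 9 members were called, against 6 genes (0.0385%) in the whole table, 2 of them higher (0.0128%) and 4 lower (0.0257%) in P2ry14-null. At an unadjusted p under 0.05 the edgeR count was 0 of 9 members, against 4.13% of all genes, and DESeq2 also called 0 of 9, against 0.118% of all genes with an adjusted p. P2ry14-null and WT libraries overlapped for 9 of 9 members, whereas 0.648% of all tested genes separated the groups. Log2 fold changes, P2ry14-null minus WT, were above 0 for 5 members and below 0 for 4. Their median was 0.0066, beside 0.0025 over all tested genes. The targeted gene checked the labels: P2ry14 averaged 23.2 ± 1.02 CPM in P2ry14-null and 211 ± 16.0 CPM in WT libraries (SD, n = 5 each), a log2 fold change of -3.19 ± 0.06 (SE, edgeR adjusted p = 3.74e-12; exact permutation p = 0.0079, two-sided, the smallest that this design allows).

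The precision behind this was high for 8 of the 9 genes. P2ry14-null libraries held 67.2 to 150.9 M reads in all (M, 1e+06), and WT libraries 118 to 185 M. The 8 members other than Uggt2 had between 1533 and 38630 reads in every library. Their 95% intervals of the log2 fold change lay between -0.20 and 0.27, so that a fall of more than 13.1% or a rise of more than 20.5% lay outside the interval of each of them. Members had a median SE of 0.06 on the log2 scale, and all tested genes one of 0.09. The median biological coefficient of variation, as edgeR names it, was 7.05% for the members and 10.7% over all tested genes. The tested genes include some of far lower level than these 8 members, and genes matched by level were not compared. A wider interval, from -0.48 to 0.39, belonged to Uggt2, which rested on 37 to 119 reads per library. Because these are bulk samples, fewer cells with a transcript and less transcript per cell cannot be told apart.

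**Figure D1:**
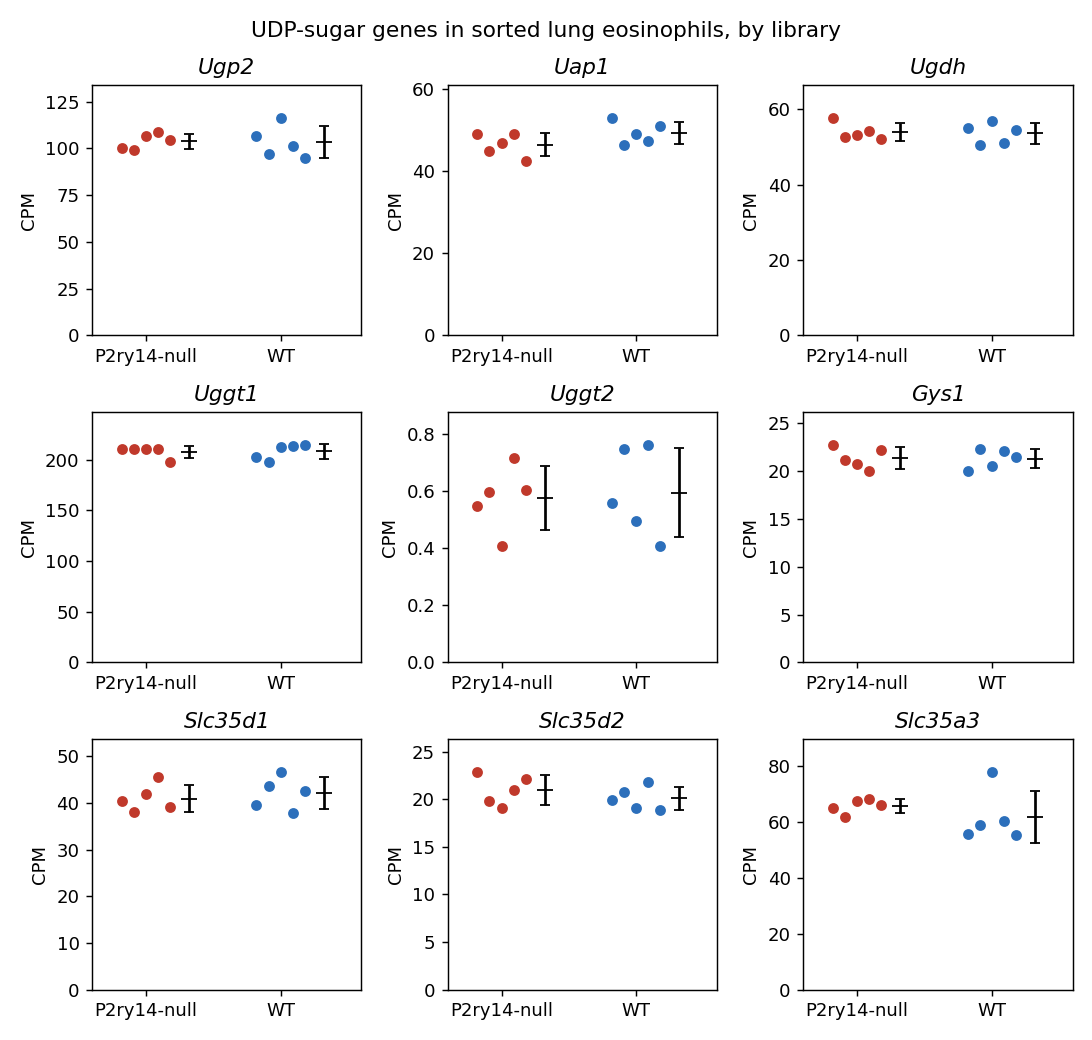
Levels of the 9 UDP-sugar genes in CPM (vertical axes, each from 0) in the 5 P2ry14-null libraries (red, left) and the 5 WT libraries (blue, right), plotted within a group in the order of replicate number; black bars are the mean ± SD. The groups overlap in every panel, and Slc35a3 in WT library 3 stands at 78.0 CPM above the other 4 WT libraries.

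Ugp2 encodes UDP-glucose pyrophosphorylase, which joins glucose 1-phosphate and UTP to form UDP-glucose, the step that supplies the P2ry14 ligand itself. It lies on the minus strand of chromosome 11 at 21321126 to 21371267 of mm10 (gene ID 216558). P2ry14-null libraries 1 to 5 had Ugp2 levels of 100.3, 99.1, 106, 109 and 104 CPM, and WT libraries 1 to 5 of 107, 97.2, 116, 101 and 94.7 CPM. The WT libraries held both the highest and the lowest value, and all 5 P2ry14-null libraries lay between them. Means were 103.7 ± 3.97 CPM in P2ry14-null and 103.2 ± 8.63 CPM in WT (SD, n = 5 each). On the log2 scale the difference was 0.0066 ± 0.0575 (SE, edgeR adjusted p = 0.999), with a 95% interval from -0.12 to 0.13. Its exons share 78 bases with Gm12043, a non-coding gene on the opposite strand.

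Uap1 encodes UDP-N-acetylglucosamine pyrophosphorylase, which makes UDP-N-acetylglucosamine, also an agonist of P2ry14 and the donor for N-glycan branching and O-GlcNAc. It lies on the minus strand of chromosome 1 at 170141223 to 170174964 (gene ID 107652). P2ry14-null libraries 1 to 5 had Uap1 levels of 49.1, 44.9, 46.8, 48.9 and 42.4 CPM, and WT libraries 1 to 5 of 52.9, 46.2, 48.8, 47.3 and 50.9 CPM. The P2ry14-null range reached lower and the WT range higher, with overlap between 46.2 and 49.1 CPM. Uap1 had the smallest p of the 9 members, at a log2 fold change of -0.09 ± 0.05 (SE, edgeR adjusted p = 0.999) and a 95% interval from -0.20 to 0.03. Its paralog Uap1l1 averaged 20.3 CPM in P2ry14-null and 20.9 CPM in WT, at a log2 fold change of -0.04 ± 0.06.

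Ugdh encodes UDP-glucose dehydrogenase, which oxidizes UDP-glucose to UDP-glucuronic acid, the donor for glycosaminoglycans and glucuronides. It lies on the minus strand of chromosome 5 at 65413207 to 65435842 (gene ID 22235). In P2ry14-null libraries 1 to 5 Ugdh stood at 57.8, 52.6, 53.1, 54.3 and 52.2 CPM, and in WT libraries 1 to 5 at 55.1, 50.6, 56.8, 50.9 and 54.6 CPM. The values of both groups were interleaved, and the highest came from P2ry14-null library 1, the shallowest of the 10. The difference on the log2 scale was 0.010 ± 0.047 (SE, edgeR adjusted p = 0.999), with a 95% interval from -0.09 to 0.11. Its exons share 158 bases with Gm43552, annotated on the same strand.

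Uggt1 and Uggt2 encode the glucosyltransferases of the endoplasmic reticulum, which take glucose from UDP-glucose and put it back on misfolded glycoproteins so that these re-enter the calnexin cycle. Uggt1 lies on the minus strand of chromosome 1 at 36140028 to 36244302 (gene ID 320011), and Uggt2 on the minus strand of chromosome 14 at 118981765 to 119099450 (gene ID 66435). Uggt1 was the steadiest member: P2ry14-null libraries 1 to 5 were at 210.4, 210.6, 210.3, 210.4 and 197 CPM, and WT libraries 1 to 5 at 203, 198, 213.0, 213.4 and 215 CPM. P2ry14-null libraries 1 to 4 nearly coincided, and library 5 lay lowest of all 10. Uggt1 differed by a log2 fold change of -0.0050 ± 0.0421 (SE, edgeR adjusted p = 0.999), and the highest of its 10 values was 1.09 times the lowest. Uggt2 was scarce, at 0.548, 0.597, 0.408, 0.715 and 0.603 CPM in P2ry14-null libraries 1 to 5 and at 0.557, 0.745, 0.496, 0.761 and 0.407 CPM in WT libraries 1 to 5. Exons of Uggt2 share 220 bases with Gm16835 on the opposite strand, which had 0 reads in all 10 libraries. Values of Uggt2 spread over the same range in both groups, with a log2 fold change of -0.05 ± 0.20 (SE, edgeR adjusted p = 0.999).

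Per length of exon, Uggt1 stood far above Uggt2. Divided by the exon length of the GENCODE basic set (9033 and 6456 bases), Uggt1 averaged 23.0 ± 0.644 CPM per kb in P2ry14-null and 23.1 ± 0.820 CPM per kb in WT libraries, and Uggt2 averaged 0.0889 ± 0.0172 and 0.0919 ± 0.0241 CPM per kb in P2ry14-null and WT (SD, n = 5 each). The ratio of Uggt1 to Uggt2 per kb had a median of 252 (range 210.4 to 369) in P2ry14-null and 261 (190.1 to 377) in WT libraries. By level per kb Uggt2 ranked 11756 of the 13033 tested genes with a length, and Uggt1 ranked 2685. The coding transcripts of both genes shared 0 runs of 31 identical bases, the longest shared run being 17 bases. The start regions of this most unequal pair are shown from RefSeq (GRCm38.p6), 250 bases before to 50 bases after an annotated start of each gene. They lie at chr1:36244253-36244552 and chr14:119099385-119099684, both on the minus strand. Capitals mark CCGGAAGT, a core motif of ETS transcription factors:
Uggt1: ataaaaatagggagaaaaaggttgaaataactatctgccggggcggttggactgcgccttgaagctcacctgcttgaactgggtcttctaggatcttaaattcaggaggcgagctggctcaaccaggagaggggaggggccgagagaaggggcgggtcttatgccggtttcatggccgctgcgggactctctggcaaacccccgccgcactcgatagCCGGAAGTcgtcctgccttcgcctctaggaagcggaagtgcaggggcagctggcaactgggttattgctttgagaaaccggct
Uggt2: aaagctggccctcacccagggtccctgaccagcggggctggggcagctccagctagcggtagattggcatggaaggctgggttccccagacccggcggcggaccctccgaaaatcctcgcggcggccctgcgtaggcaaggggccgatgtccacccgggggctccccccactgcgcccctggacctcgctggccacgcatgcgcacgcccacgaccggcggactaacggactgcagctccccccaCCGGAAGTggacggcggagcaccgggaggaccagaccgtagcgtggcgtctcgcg
Both windows held this motif once, on the strand of the gene, 33 bases before the start used for the window in Uggt1 and across it in Uggt2. Annotations differ in the upstream end of these genes. It is 119099450 in the deposited coordinates and 119099796 in RefSeq for Uggt2, and 36244302 and 36244320 for Uggt1. For Uggt2 the start used for the window is neither of these ends, and by the RefSeq end the whole printed window lies inside the gene. The place of the motif relative to the start therefore depends on the annotation. Searched on both strands, it occurred in 3.89% of the 32851 RefSeq windows of 300 bases and in the windows of 2 of the 8 members with an entry, which were these 2. Uggt1 had a GC content of 57% and 17 CpG sites, and Uggt2 a GC content of 71.7% and 30 CpG sites. Of the other motifs searched on both strands, CCAAT was in the windows of 4 of 8 members and 37.4% of all windows, and the GC box GGGCGG in those of 6 of 8 members and 35.7% of all windows. Members were counted by gene, Ugp2 with 2 windows, and the shares by window. The windows of members had a GC content of 57% to 76%, and all windows were not matched to that. Enrichment of a motif was not tested.

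Gys1 encodes the glycogen synthase of muscle and most other tissues, which builds glycogen from UDP-glucose. It lies on the plus strand of chromosome 7 at 45434839 to 45456617 (gene ID 14936). P2ry14-null libraries 1 to 5 were at 22.7, 21.2, 20.7, 19.97 and 22.2 CPM of Gys1, against 19.9, 22.3, 20.5, 22.0 and 21.4 CPM in WT libraries 1 to 5. The ranges nearly coincided, and Gys1 differed by 0.0069 ± 0.0522 on the log2 scale (SE, edgeR adjusted p = 0.999), with a 95% interval from -0.11 to 0.12. Exons of Gys1 share 310 bases with Ruvbl2 on the opposite strand, and the strand setting of the counting is not given in the sources used here, so some reads may belong to either gene. Ruvbl2 stood at a log2 fold change of -0.02 ± 0.05. Gys2, the liver form, had 0 reads in each P2ry14-null library, which allows up to 0.0192 to 0.0445 CPM by counting error alone, and at most 2 reads in a WT library.

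The 3 transporters carry UDP-sugars from the cytosol into the secretory pathway. Slc35d1 moves UDP-glucuronic acid and UDP-N-acetylgalactosamine into the endoplasmic reticulum and lies on the minus strand of chromosome 4 at 103170649 to 103215368 (gene ID 242585). It stood at 40.3, 38.0, 41.9, 45.5 and 39.1 CPM in P2ry14-null libraries 1 to 5 and at 39.6, 43.6, 46.7, 37.9 and 42.6 CPM in WT libraries 1 to 5. The extremes of both groups lay side by side, and Slc35d1 differed by -0.04 ± 0.06 on the log2 scale (SE, edgeR adjusted p = 0.999).

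Slc35d2, whose human counterpart carries UDP-N-acetylglucosamine and UDP-glucose into the Golgi, lies on the minus strand of chromosome 13 at 64096308 to 64129385 (gene ID 70484). It stood at 22.9, 19.8, 19.1, 21.0 and 22.2 CPM in P2ry14-null libraries 1 to 5, against 19.97, 20.7, 19.0, 21.8 and 18.9 CPM in WT libraries 1 to 5. P2ry14-null libraries 1 and 5 lay above every WT library and the other 3 within the WT range. Slc35d2 differed by 0.06 ± 0.06 on the log2 scale (SE, edgeR adjusted p = 0.999), with a 95% interval from -0.07 to 0.20. Slc35d3, the remaining member of that subfamily, was near the limit of detection, with 16 to 23 reads in P2ry14-null and 14 to 34 reads in WT libraries.

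Slc35a3, the UDP-N-acetylglucosamine transporter of the Golgi, lies on the minus strand of chromosome 3 at 116669469 to 116713741 (gene ID 229782). P2ry14 is on the same chromosome but distant, at 59114623 to 59153492. P2ry14-null libraries 1 to 5 had Slc35a3 levels of 64.9, 61.8, 67.5, 68.2 and 66.0 CPM, and WT libraries 1 to 5 of 55.7, 59.1, 78.0, 60.3 and 55.5 CPM. Every P2ry14-null library lay above 4 of the 5 WT libraries and below WT library 3, the deepest of the 10. The log2 difference of Slc35a3 was 0.09 ± 0.08 (SE, edgeR adjusted p = 0.999), with a 95% interval from -0.09 to 0.27. Without WT library 3 it was 0.19, with an edgeR adjusted p of 0.441, and over the 16 alternatives the adjusted p ran from 0.441 to 1.00, so that the gene passed in none of them. Of the 9 members, Slc35a3 had the largest fold change in size and the largest spread among WT libraries after Uggt2, with a coefficient of variation of 3.84% in P2ry14-null and 15.1% in WT libraries. Its exons share 275 bases with Gm43191, annotated on the same strand.

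**Figure D2:**
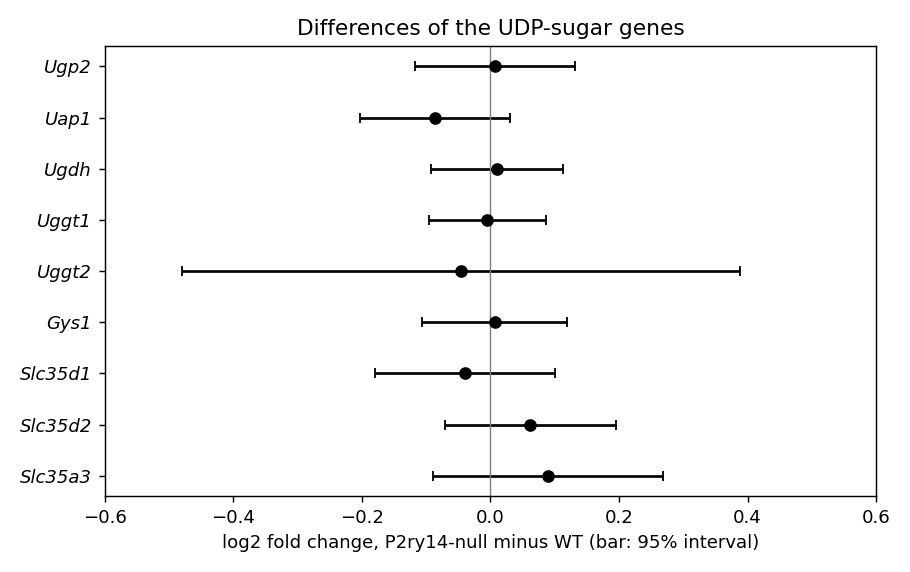
Log2 fold change, P2ry14-null minus WT (horizontal axis), of each of the 9 UDP-sugar genes (rows) with its 95% interval from the edgeR fit to 5 against 5 libraries. Every interval includes 0; those of the 8 genes other than Uggt2 lie between -0.20 and 0.27.

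Levels of different genes were compared per kb of exon. Ugp2 stood highest, at 36.1 ± 1.38 CPM per kb in P2ry14-null and 36.0 ± 3.01 CPM per kb in WT libraries (SD, n = 5 each), and exceeded Uggt1, the next gene, in 10 of 10 libraries (ratio 1.39 to 1.72). Uggt1 exceeded Ugdh in 10 of 10 libraries by 1.03 to 1.18 times. Ugdh (21.2 CPM per kb in P2ry14-null, 21.0 in WT) and Uap1 (19.6 and 20.8) did not differ beyond their spread, with Ugdh higher in 7 of 10 libraries. Uap1 stood 1.56 to 2.37 times above Slc35a3. The transporters lay close together: Slc35a3 averaged 11.1 CPM per kb in P2ry14-null and 10.5 in WT, Slc35d1 averaged 9.65 and 9.92, and Slc35d2 averaged 9.06 and 8.67. Neighbours among these 3 exceeded one another in only 8 and 7 of 10 libraries. Slc35a3, the first of them, exceeded Slc35d2, the last, in 10 of 10 libraries (ratio 1.09 to 1.61). Gys1 followed at 5.81 CPM per kb in P2ry14-null and 5.78 in WT, below Slc35d2 in 10 of 10 libraries. With the longer exon lengths of the comprehensive GENCODE set, Ugp2, Uggt1, Gys1 and Uggt2 kept their places, while Uap1 (11.6 CPM per kb in P2ry14-null, 12.3 in WT) stood above Ugdh (7.996 and 7.936) and Slc35d2 (6.36 and 6.09) above Slc35a3 (6.09 and 5.72) and Slc35d1 (4.80 and 4.93). Among 13033 tested genes with a length, the basic exon length placed Ugp2 at rank 1772, in the upper 13.6%, and Gys1 at rank 6330, in the upper 48.6%.

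**Figure D3:**
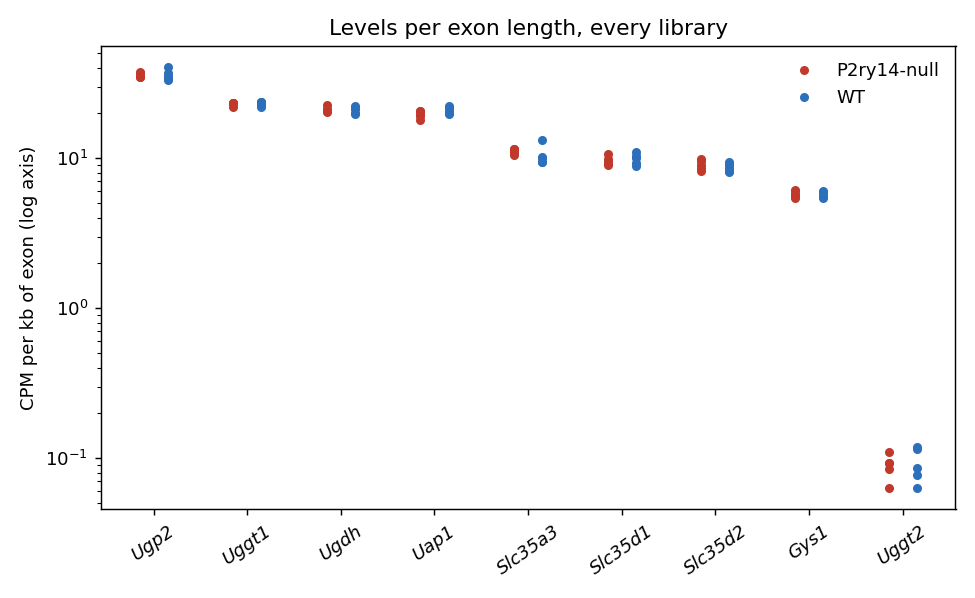
Level per kb of exon in CPM (vertical log axis) of the 9 UDP-sugar genes, ordered from high to low, in each P2ry14-null (red, left) and WT (blue, right) library. Ugp2 averages 36.1 and 36.0 CPM per kb in P2ry14-null and WT, and Uggt2 0.0889 and 0.0919.

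From library to library the members did not move as 1 block. Log2 CPM values with group means removed were correlated for all 36 pairs of members over the 10 libraries, with permutation of libraries within each genotype (14400 assignments) and adjustment over the 36 pairs. By Pearson's r, 17 of these pairs were positive and 19 negative, and 0 passed the threshold, with 3 at an unadjusted permutation p under 0.05. Ugp2 and Slc35a3 had Pearson's r = 0.805 (permutation p = 0.0295, adjusted 0.463) and Spearman's rho = 0.721 (permutation p = 0.0190, adjusted 0.257). When WT libraries 3 and 5 were dropped, being farthest from the median in Ugp2, r was 0.317, so over all 10 libraries the relation did not hold without them. Leaving out WT library 1 gave r = 0.973 for this pair (permutation p = 3.47e-04, the smallest that 2880 assignments allow; adjusted 0.0125), the only leave-one-out set in which a pair passed, and r = 0.916 with WT libraries 3 and 5 dropped as well, so that the value without those libraries turns on WT library 1. Ugdh and Uap1, whose enzymes each make a UDP-sugar in the cytosol, had r = 0.731 (permutation p = 0.0296, adjusted 0.463) and rho = 0.806 (permutation p = 0.0128, adjusted 0.257), and r = 0.895 without P2ry14-null library 1 and WT library 3. Uggt2 and Slc35d2 had r = 0.682 (permutation p = 0.0386, adjusted 0.463) and rho = 0.709 (permutation p = 0.0214, adjusted 0.257), and r = 0.404 without WT library 5 and P2ry14-null library 3. By Spearman's rho alone, Ugp2 and Gys1 were also under 0.05 (rho = -0.697, permutation p = 0.0337, adjusted 0.303). Their r was -0.622 (permutation p = 0.0581, adjusted 0.471), and -0.781 without WT libraries 3 and 5. WT library 3 was the highest of the 10 for 3 members, Ugp2, Slc35d1 and Slc35a3. P2ry14-null library 1 was the highest for 3 others, Ugdh, Slc35d2 and Gys1.

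Other genes of the same chemistry were read from 8 lists sorted by role. Of 114 tested genes in them, 0 were called by edgeR (lowest adjusted p 0.999) or by DESeq2, 57 lay above 0 and 57 below, and the median log2 fold change was 0.00097. With no adjustment, 3 of them (2.63%) had an edgeR p under 0.05, against 4.13% of all genes. The hexosamine list, which leads to UDP-N-acetylglucosamine, had 8 of 11 genes above 0 and a median of 0.01. Its genes of smallest p were Gnpda2 (log2 0.10 ± 0.09) and Gnpda1 (0.06 ± 0.06), deaminases that run the pathway backwards. Hexose entry and the Leloir pathway, which joins galactose to UDP-glucose, had 8 of 14 above 0 (median 0.0045), led by p by Uxs1, which turns UDP-glucuronic acid into UDP-xylose (0.11 ± 0.06), and Gne (0.09 ± 0.06), which starts sialic acid synthesis from UDP-N-acetylglucosamine. Genes of UTP supply had 5 of 15 above 0 (median -0.01). Uck2, a uridine kinase, stood at -0.10 ± 0.06 and Nme2, a nucleoside diphosphate kinase with a close neighbour copy, Nme1, at -0.14 ± 0.08.

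On the consuming side, glycogen genes had 6 of 16 above 0, with a median of -0.0038. Gyg, the primer of glycogen, averaged 121 ± 2.89 CPM in P2ry14-null and 127 ± 8.58 CPM in WT (log2 -0.07 ± 0.05), and the lysosomal glucosidase Gaa stood at -0.06 ± 0.05. Pygl, a glycogen phosphorylase singled out after its values were seen, averaged 695 ± 25.8 CPM per kb in P2ry14-null and 699 ± 35.8 CPM per kb in WT libraries (SD, n = 5 each), above the 5.81 and 5.78 CPM per kb of Gys1. The calnexin cycle list, where Uggt1 acts, had 4 of 15 above 0 (median -0.03), with Lman1, a cargo receptor, at 0.09 ± 0.05 and Man1b1, a mannosidase, at -0.14 ± 0.09. Glycosyltransferases that use UDP-sugars had 14 of 22 above 0 (median 0.04). Extl3, a heparan sulfate transferase, had 16.4, 17.5, 15.9, 15.6 and 16.5 CPM in P2ry14-null libraries 1 to 5, against 14.5, 15.1, 14.6, 14.8 and 15.1 CPM in WT libraries 1 to 5. Its groups did not overlap, yet its log2 fold change of 0.15 ± 0.05 did not pass (edgeR adjusted p = 0.999), and Xylt2, which starts glycosaminoglycan chains from UDP-xylose, stood at 0.15 ± 0.06 (edgeR adjusted p = 0.999).

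Among 14 other nucleotide sugar transporters, 8 lay above 0 and the median was 0.0083. Slc35e3, a family member of unassigned substrate, had 15.4, 14.2, 16.7, 16.3 and 15.5 CPM in P2ry14-null libraries 1 to 5, against 17.8, 18.9, 16.8, 17.1 and 16.9 CPM in WT libraries 1 to 5. The groups did not overlap, as in 0.648% of all genes, and the log2 fold change was -0.16 ± 0.06 (edgeR adjusted p = 0.999). Slc35a2, the UDP-galactose transporter, stood at -0.06 ± 0.04. In the list of UDP-sugar breakdown and vesicular nucleotide uptake, 4 of 7 genes lay above 0 (median 0.02), with Entpd5, which hydrolyses UDP in the endoplasmic reticulum, at 0.06 ± 0.07. Enpp1, an ectoenzyme that splits nucleotides, had 0.267, 1.09, 0.211, 0.210 and 0.141 CPM in P2ry14-null libraries 1 to 5, against 0.168, 0.276, 0.248, 0.205 and 0.169 CPM in WT libraries 1 to 5. P2ry14-null library 2 alone stood above the rest, at a log2 fold change of 0.87 ± 0.50 over all libraries (edgeR adjusted p = 0.999).

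**Figure D4:**
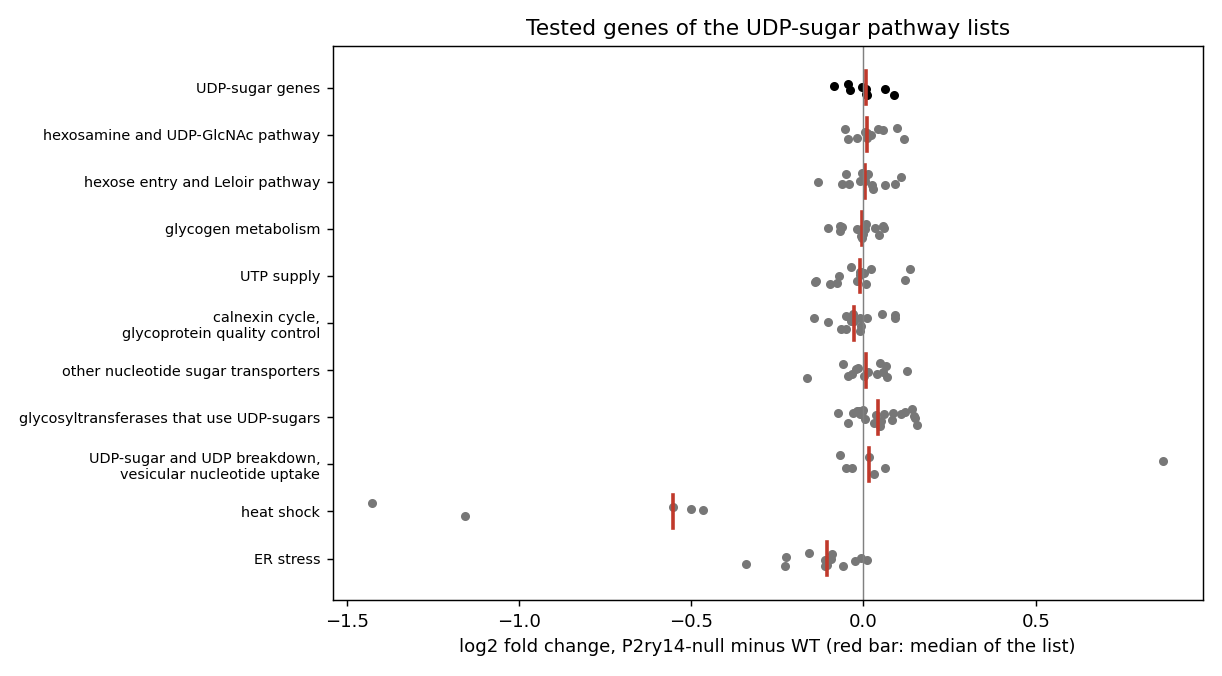
Log2 fold change, P2ry14-null minus WT (horizontal axis), of every tested gene of the 9 UDP-sugar genes (black, top row) and of 10 related lists (grey), with the median of each list as a red bar. The medians of the UDP-sugar genes and of the 8 lists under them lie between -0.03 and 0.04, and those of the heat shock and endoplasmic reticulum stress lists at -0.55 and -0.11.

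Cell identity and stress markers were read beside these values. The 5 eosinophil markers (Siglecf, Ccr3, Il5ra, Epx, Prg2) summed to 3584 to 3937 CPM in P2ry14-null and 3490 to 3971 CPM in WT libraries, with 0 of 5 called. Log2 fold changes lay above 0 for 4 of them and below for 1, Siglecf. Epx, 1 of the scarcer of them, averaged 28.1 ± 3.35 CPM in P2ry14-null and 23.95 ± 0.92 CPM in WT. It was the 1 eosinophil marker at an unadjusted edgeR p under 0.05 (log2 0.23 ± 0.07, SE, edgeR adjusted p = 0.999). The summed markers of antigen-presenting cells, alveolar macrophages, lung epithelium, T cells, B cells, and red cells and platelets were each highest in P2ry14-null library 2. Class II genes summed to 426 CPM there, to 74.4 to 120 CPM in the other 4 P2ry14-null libraries and to 105 to 143 CPM in WT libraries. Alveolar macrophage genes summed to 1578 CPM there and to 249 to 540.4 CPM in the other 9 libraries. Most of this sum was 1 gene, Chil3, at 540 ± 551 CPM in P2ry14-null and 412 ± 80.4 CPM in WT libraries (SD, n = 5 each). The other tested genes of that list averaged at most 11.7 CPM in a group. In P2ry14-null library 2, 0 of the 9 members were at the highest or lowest value of all 10 libraries. Within the P2ry14-null group it was the lowest for Ugp2, Slc35d1 and Slc35a3 and the highest for Uggt1, at the values given above. Without it the members' log2 fold changes ran from -0.07 to 0.11, with 0 of 9 called. Whether those other cells had a part in the members' values was not tested. Neutrophil markers summed to 3687 to 5382 CPM in P2ry14-null and 3692 to 4631 CPM in WT libraries, nearly all of it Retnlg, a resistin-like gene, at 4103 ± 655 and 3782 ± 361 CPM (SD, n = 5 each). Ly6g, which defines mouse neutrophils, averaged 1.65 ± 0.36 CPM in P2ry14-null and 1.24 ± 0.15 CPM in WT libraries, and S100a8 averaged 1.97 ± 1.53 and 0.98 ± 0.21 CPM. These were the 2 of the 5 neutrophil markers at an unadjusted p under 0.05, and 0 of 5 were called. S100a9 averaged 122 ± 28.6 CPM in P2ry14-null and 109 ± 14.2 CPM in WT libraries, and Cxcr2 averaged 130 ± 19.5 and 133 ± 19.4 CPM. Of the 5 neutrophil markers 4 lay above 0, and Cxcr2 lay below it. The other marker sums were 10.3 to 13.4 CPM in P2ry14-null and 12.4 to 15.3 CPM in WT for mast cells and basophils, 1.58 to 3.51 and 1.25 to 1.77 CPM for T cells, 9.61 to 21.8 and 10.4 to 17.3 CPM for B cells, 4.65 to 72.0 and 12.4 to 24.0 CPM for lung epithelium, 204 to 239 and 209.6 to 234 CPM for endothelium and fibroblasts, and 2.19 to 3.75 and 1.84 to 3.38 CPM for red cells and platelets. In the mast cell and basophil sum Kit alone averaged 10.2 ± 1.38 CPM in P2ry14-null and 11.5 ± 0.95 CPM in WT libraries. In the endothelium and fibroblast sum Pecam1 alone averaged 213 ± 13.3 CPM in P2ry14-null and 221 ± 9.11 CPM in WT libraries. Of those 6 genes 5 lay above 0, and Eln, which encodes elastin, separated the groups at 1.10 ± 0.20 CPM in P2ry14-null and 0.71 ± 0.16 CPM in WT libraries (log2 0.63 ± 0.17, SE, edgeR adjusted p = 0.999). Cpa3, the mast cell carboxypeptidase, separated them the other way, at 0.35 CPM in P2ry14-null and 0.57 CPM in WT libraries (log2 -0.67 ± 0.19, SE, edgeR adjusted p = 0.999). Of all tested genes 0.648% separated the groups. Mast cell and basophil markers lay below 0 in 5 of 5 cases. Above 0 lay 5 of 5 class II, 5 of 5 macrophage, 4 of 4 T cell and 3 of 4 B cell markers. So did 4 of 5 epithelial and 2 of 3 red cell and platelet markers. An unadjusted edgeR p under 0.05 belonged to 2 epithelial, 2 endothelial or fibroblast and 1 mast cell marker. No listed marker was called by edgeR, and none was at 0 in all libraries.

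Heat shock genes lay below 0 in 5 of 5 cases (median -0.55, summed level 372 to 815 CPM in P2ry14-null and 673 to 928 CPM in WT). Endoplasmic reticulum stress genes lay below 0 in 12 of 13 (median -0.11). In these lists edgeR called 0 genes, 5 and 3 had an unadjusted edgeR p under 0.05, and DESeq2 called 1, Dnajb1. Over all tested genes 4.13% had an unadjusted edgeR p under 0.05 and 51.2% lay above 0. Both lists were chosen with earlier results of these data known, so their counts and directions are no independent support. The 2 heat shock genes of smallest p were Dnajb1, a co-chaperone of Hsp70, at -0.47 ± 0.09 (edgeR adjusted p = 0.3995), and Hsp90aa1, a cytosolic chaperone, at -0.55 ± 0.17 (edgeR adjusted p = 0.999). Of the stress list they were Trib3, a pseudokinase induced under such stress, at -0.23 ± 0.07 (edgeR adjusted p = 0.999), and Hspa5. Hspa5, the main chaperone of the compartment in which Uggt1 acts, stood at -0.34 ± 0.11 (edgeR adjusted p = 0.999), beside -0.0050 ± 0.0421 for Uggt1; whether these 2 changes differ was not tested.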

How the data were processed

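RNA of sorted lung eosinophils was sequenced in 5 P2ry14-null and 5 WT libraries, grouped and numbered by the sample titles. Raw read counts, 1 whole number per gene and library, were deposited by the authors with mm10 coordinates. The submitters' processing notes name build mm10, DESeq2, STAR 2.5, featureCounts 1.5.0-p1 and Subread, with no roles. Annotation release, strand setting and the handling of multiply mapped reads are stated in none of the sources used here.

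edgeR 4.0.16 (R 4.3.3) was run on all 10 libraries with genotype as the only term, TMM normalization and filterByExpr. The SE was taken as |log2 fold change| over the root of the F statistic, and 95% intervals use its t distribution. Alternatives were RLE and upper-quartile factors, no filter or a filter of 1 CPM in 5 libraries, DESeq2 1.42.0, a replicate block and leaving out each library. Correlations used log2 CPM with a prior count of 2, and their permutation test enumerated all 14400 assignments in place of the random draws planned at first. No pair of libraries within a group agreed within sampling noise (chi-square per gene at least 24.2). Exon lengths came from GENCODE vM21 (GRCm38), matched by gene ID. Limits at 0 reads cover counting error only.

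The members and lists were chosen with earlier results of these data known. Named genes were P2ry14, the 9 members, any list gene past the threshold, the 2 of smallest p in each list, and paralogs or neighbours of members. List genes without a row in the table are not analysed here. Slc35d2 had no promoter window in the table used.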

Additional observations from a re-analysis of the deposited data

Results flagged for a closer look

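Levels of the 9 members and P2ry14 were checked in both groups, 20 groups of 5 libraries in all, for a single library far from the other 4; chance marks about 1 in 20 such groups. Uggt1 was lowest in P2ry14-null library 5, at 197 CPM against 210.3 to 210.6 CPM in the other 4 P2ry14-null libraries. Without that library the log2 fold change of Uggt1 was 0.014. Slc35a3 was highest in WT library 3, at 78.0 CPM against 55.5 to 60.3 CPM in the other 4 WT libraries, and its log2 fold change without that library was 0.19.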

How the results depend on the processing

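None of the 9 members passed the threshold in any of the alternatives run, which were 16 fits for each of 8 members and 15 for Uggt2, left out by the filter of 1 CPM in 5 libraries. Slc35d2, Slc35a3 and Uap1 kept their direction in all 16. Without a low-count filter the log2 fold changes of Ugp2, Ugdh and Gys1 turned to -0.0035, -0.00017 and -0.0037. With single libraries left out they ran from -0.023 to 0.053 for Ugp2, from -0.015 to 0.032 for Ugdh, from -0.022 to 0.014 for Uggt1, from -0.15 to 0.070 for Uggt2, from -0.081 to 0.0010 for Slc35d1 and from -0.016 to 0.030 for Gys1. Each of these lies within the gene's own 95% interval, which ran from -0.10 to 0.09 for Uggt1 and from -0.18 to 0.10 for Slc35d1, and the cause was not tested. Over all genes, edgeR called 6, DESeq2 19 and single-library omissions 3 to 5, with 3 each without P2ry14-null library 1, 2, 3 or 5 or WT library 4. DESeq2 called 1 gene of the 10 lists, Dnajb1 (log2 -0.47). Leaving out single libraries gave 0 to 1 correlated pairs of members. Deviations of libraries with the same number correlated between -0.0933 and 0.094, so these values show no pairing by number. They cannot decide whether such libraries were handled together, which the labels do not state. With the replicate block edgeR called 6 genes and 0 members. Levels per kb depend on the exon length used, as the report states. Of the members, Uggt2 has the fewest reads and the widest interval.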
